A study of Drosophila melanogaster with 52 samples.

Results

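The mitochondrial ribosomal protein genes of Drosophila melanogaster are the rows of the deposited expression table whose symbol begins with mRpL or mRpS followed by a number. The rule found 72 of the 16502 genes listed, 46 with a large-subunit symbol (mRpL) and 26 with a small-subunit symbol (mRpS), and all 72 matched a current RefSeq symbol. They were measured in 3 PhoKO libraries from larvae lacking zygotic pho, 4 SppsKO libraries from larvae lacking both maternal and zygotic Spps, and 3 wild-type (WT) libraries. Pho and Spps are DNA-binding proteins that recruit Polycomb group complexes to chromatin. The tissue was imaginal discs with brains, dissected from larvae in the third instar, and the assay was RNA-Seq of polyadenylated RNA. Larvae that lack only zygotic pho can still carry product supplied by the mother. Neither alleles nor ages within the instar are named in the labels, and these do not tell whether the libraries of 1 group were prepared from different crosses. P-values therefore reflect library-to-library spread, part of which may be technical.

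Mitochondrial ribosomes translate the few proteins encoded by mitochondrial DNA, which are core subunits of the oxidative phosphorylation complexes. Their ribosomal RNAs come from the mitochondrial genome, whereas every protein is encoded in the nucleus, made in the cytosol and imported. Part of the proteins descend from those of bacterial ribosomes, and the others are found in mitochondria alone. Both groups of members are named here by their counterparts in the human mitochondrial ribosome, and roles quoted from bacteria or human are background from those organisms.

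Both targeted genes followed the labels. Spps averaged 0.957 ± 0.0743 FPKM in SppsKO (SD, n = 4) and 12.5 ± 0.335 FPKM in WT (SD, n = 3; p = 0.0286 by exact permutation, two-sided, which is the lowest value this design allows). The pho transcript averaged 17.5 ± 1.86 FPKM in PhoKO and 59.6 ± 7.33 FPKM in WT (SD, n = 3 each; p = 0.1 by the same exact test, again the lowest value the design allows). Relative depth, taking WT 1 as 100%, lay between 60.0% (WT 3) and 106%, with PhoKO 1 at 63.8%. Summed marker levels differed between groups for several other cell types that a dissection could carry. The 8 hemocyte markers summed to 107 to 158 FPKM in PhoKO, 42.1 to 64.3 in SppsKO and 122 to 221 in WT, and the 8 muscle markers to 201 to 698, 97.6 to 211 and 296 to 321 FPKM in the same order. PPO1 and PPO2 weighed most in the hemocyte sums of PhoKO and WT, at means of 27.8 and 46.5 FPKM in PhoKO and 47.8 and 72.9 in WT. In SppsKO they averaged 7.53 and 12.2 FPKM, beside Pxn at 12.3. Of the 8 hemocyte markers 6 were lower in SppsKO than in WT, and NimC1 and lz were higher. Only 3 of the 8, PPO1, PPO2 and eater, were lower in PhoKO than in WT. The rest were higher in PhoKO, NimC1 at 5.47 FPKM against 1.05 in WT. The 7 fat body markers spanned 741 to 4325 FPKM in PhoKO, 1338 to 2106 in SppsKO and 1279 to 5447 in WT, and the 6 salivary gland markers 79.5 to 1461, 282 to 3022 and 814 to 6336. Of 6 gut markers 2 passed the filter on low values, and alphaTry, betaTry and Mal-A1 were at 0 in at least 1 library. The 5 glial markers summed to 203 to 212 FPKM in PhoKO, 160 to 169 in SppsKO and 159 to 165 in WT. Neuron, neuroblast and disc markers such as elav, mira and vg were detected in every library. Single markers of these lists differed between groups as well, and ato averaged 25.7 FPKM in PhoKO, 21.4 in SppsKO and 17.3 in WT. In the same order mira averaged 35.2, 30.2 and 30.5 FPKM and ap 44.3, 37.3 and 47.1, beside elav at 63.2, 61.7 and 60.9. In bulk RNA, fewer cells of a type and less RNA per cell cannot be told apart, and the part of these markers in the results below was not tested.

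All 72 members were expressed in every library. FPKM is fragments per kilobase of transcript scaled to sequencing depth, so it divides by transcript length. Levels of different genes are set side by side on this scale. They still depend on the annotation and on fragments shared by overlapping genes, so the order of genes is approximate. Mean levels over the 10 libraries ran from 21.5 FPKM for mRpL54 to 107 FPKM for mRpL30, a 4.97-fold range, with a median of 43.0 and quartiles of 33.1 and 53.9. Among the 9748 genes at 1 FPKM or more in at least 3 libraries, hereafter the tested genes, the members stood between the 52.6th and 90.6th percentile of mean level, with a median at the 74.5th. The median level of all tested genes was 19.7 FPKM. Genes of the cytosolic ribosome were far more abundant, with a median of 3020 FPKM over 88 genes. Nuclear genes for oxidative phosphorylation subunits had a median of 125 FPKM over 81 genes. The mitochondrial translation factors and aminoacyl-tRNA synthetases, which work with the same ribosome, had a median of 9.87 FPKM over 26 genes.

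The most abundant members were mRpL30 at 107 FPKM, mRpL34 at 90.5, mRpL12 at 85.2, mRpS5 at 82.6, mRpL27 at 76.2, mRpL33 at 71.7, mRpS16 at 71.4 and mRpS21 at 71.1 (means over 10 libraries). The protein of mRpL12 is the stalk protein that recruits translation factors, and in human cells it also binds the mitochondrial RNA polymerase. All 8 are of the bacterial type. At the other end stood mRpL54 at 21.5 FPKM, mRpL10 at 22.1, mRpS31 at 26.0 and mRpL40 at 28.3. The 43 bacterial-type members had a median level of 44.8 FPKM and the 29 mitochondria-specific members one of 39.7 FPKM. Members with large-subunit symbols had a median of 41.7 FPKM and those with small-subunit symbols one of 44.0 FPKM. Subunits of 1 particle thus differed several-fold in FPKM, although the assembled ribosome holds most of them in equal number.

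**Figure D1:**
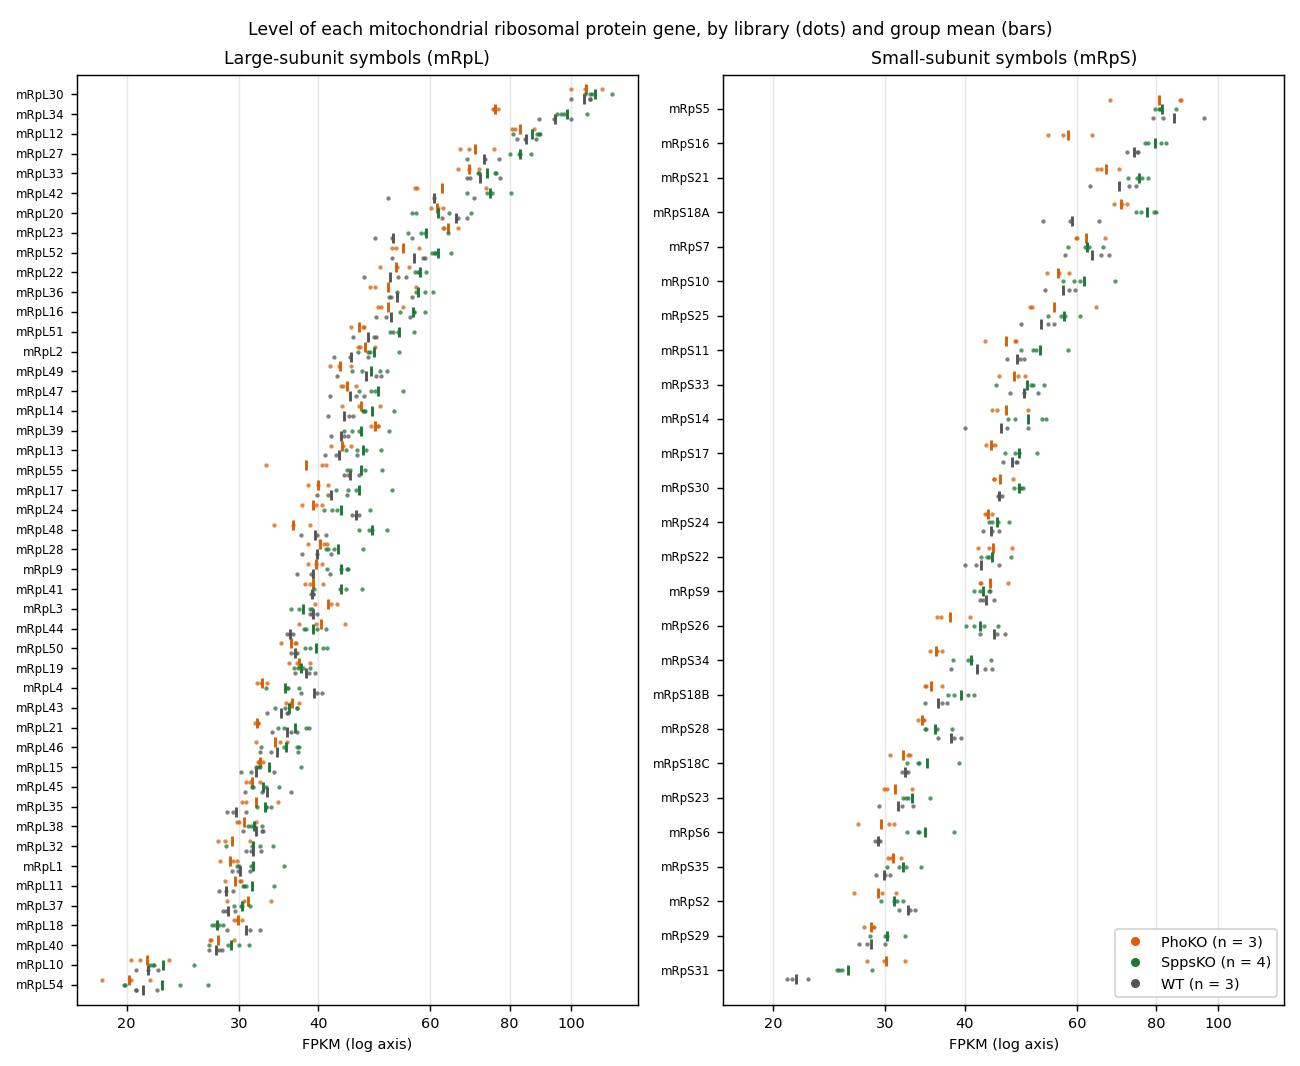
FPKM (log axis) of each of the 72 members, sorted by mean, with libraries as dots and group means as bars for PhoKO (n = 3), SppsKO (n = 4) and WT (n = 3). Group means lie close together for most members compared with the 4.97-fold range between mRpL54 at 21.5 FPKM and mRpL30 at 107 FPKM.

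The order of the members was nearly the same in all libraries. Spearman's rho over the 72 levels was 0.967 to 0.986 for the 12 pairs of libraries of the same group and 0.929 to 0.976 for the 33 pairs from different groups. The coefficient of variation between libraries had a median over members of 4.02% in PhoKO, 5.02% in SppsKO and 4.55% in WT, against 4.11%, 4.34% and 4.90% for the 3709 tested genes in the same range of levels. It stayed under 10% for 68 members in PhoKO, 70 in SppsKO and 69 in WT. The most variable were mRpL42 in PhoKO (15.2%) and WT (15.4%) and mRpL54 in SppsKO (15.2%).

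The summed FPKM of the members was 3302, 3149 and 3145 in the PhoKO libraries, 3374, 3445, 3335 and 3659 in the SppsKO libraries, and 3351, 3192 and 3248 in the WT libraries. The group means were 3199 ± 89.5 in PhoKO (SD, n = 3), 3453 ± 145 in SppsKO (SD, n = 4) and 3264 ± 80.6 in WT (SD, n = 3). SppsKO 4 stood highest, and the PhoKO and SppsKO sums did not overlap, whereas each mutant's sums overlapped those of WT. The sum of large-subunit symbols was 1.68 to 1.77 times that of small-subunit symbols in every library, so this ratio moved little. It goes by symbol and is not an exact ratio of the subunits. The human counterparts of mRpS18A and mRpS30, mL66 and mL65, belong to the large subunit. The members together made up 0.4138% to 0.4665% of all FPKM.

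SppsKO 4 stood apart among the SppsKO libraries. It was above its group mean for 68 of 72 members, was the highest of its group for 58 and the highest of all 10 libraries for 44. The median member was higher by 0.085 on the log2(FPKM + 1) scale than the group mean there, against 0.014 for all tested genes. In the same library the median deviation was 0.088 for cytosolic ribosomal proteins, 0.076 for oxidative phosphorylation subunits and 0.077 for mitochondrial import genes. Its neuron markers summed to 95.6 FPKM (113 to 126 in the other SppsKO libraries), its neuroblast markers to 87.9 FPKM (117 to 119) and its muscle markers to 97.6 FPKM (190 to 211). Markers in these sums varied to different degrees. Among the neuroblast markers pros averaged 55.8 ± 13.6 FPKM in SppsKO (SD, n = 4). The others varied less for their level, with dpn at 4.73 FPKM, ase at 9.29, wor at 10.7 and mira at 30.2, and SDs of 0.321 to 0.657. Among the neuron markers only elav was steady in SppsKO, at 61.7 ± 0.976 FPKM (SD, n = 4). The others varied more for their level, brp at 23.7 ± 7.09 FPKM, Syt1 at 21.4 ± 3.52, Rdl at 4.83 ± 1.43 and para at 2.51 ± 0.99 (SD, n = 4). PhoKO 1 was above its group mean for 60 members and WT 1 for 58. The part of these library differences in the comparisons was not tested beyond leaving out each library.

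**Figure D2:**
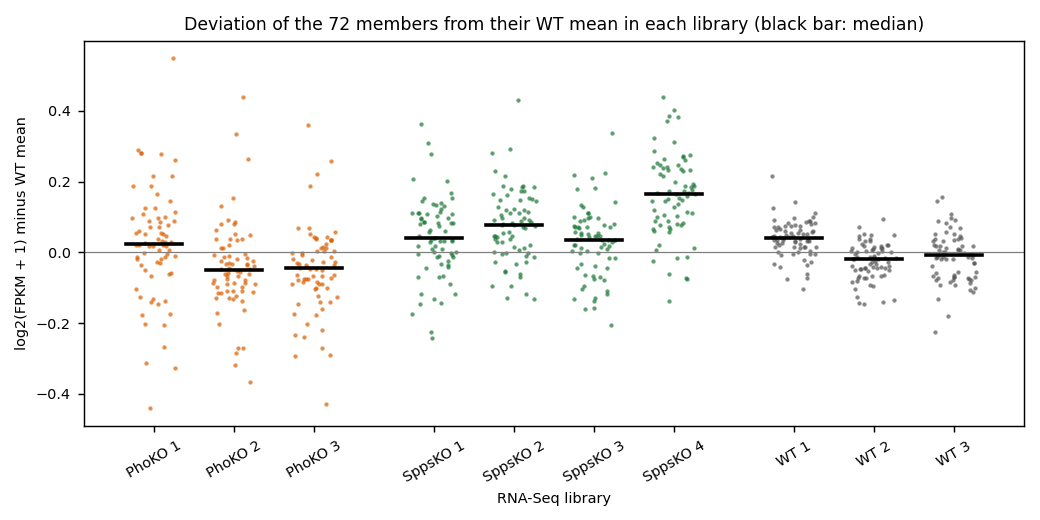
Each dot is 1 of the 72 members in 1 library, placed by its log2(FPKM + 1) minus its mean in WT, and black bars are library medians for PhoKO, SppsKO and WT. The median of SppsKO 4 is the highest at 0.166, and the other 3 SppsKO medians lie between 0.035 and 0.078.

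Deviations of members from their group means tended to go together across the 10 libraries. Over the 2556 pairs of members the median Pearson correlation of these deviations was 0.436, and 85.1% of pairs were positive. Without SppsKO 4 the median was 0.265 and 70.0% were positive. Over the 3709 genes in the same range of levels the median was 0.009, and over cytosolic ribosomal proteins it was 0.578. The pairs of every list share the same 10 libraries, with their depth and tissue composition, and the correlations are given as a description.

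In SppsKO discs and brains, 4 of the mitochondrial ribosomal protein genes rose relative to WT and none fell. A gene was called when its adjusted p was under 0.05 in a linear model over all tested genes. The 4 called members were mRpS18A, mRpL48, mRpS31 and mRpS6, higher in SppsKO by 0.39 to 0.23 on the log2 scale. They are 5.56% of the members, beside 8.18% of all tested genes called in either direction, 3.92% called higher and 4.26% called lower. Of the tested genes in the same range of levels 3.72% were called higher, and the difference between these shares was not tested. At an unadjusted p under 0.05, 21 members were higher and 2 lower (12.4% and 11.8% of all tested genes). With array weights, an option of limma that weights libraries, 10 were called higher and 5 lower (11.0% and 12.2% of all tested genes). The median fold change of the members was 0.082 on the log2 scale, beside 0.0010 for all tested genes and 0.020 for tested genes in the same range of levels. A total of 57 members had a fold change above 0 and 15 one below, beside 2186 and 1523 of the 3709 tested genes in that range. Of those genes 14.7% were higher and 7.66% lower at an unadjusted p under 0.05. Library by library, the median difference of the members from their WT means was 0.041, 0.078, 0.035 and 0.166 in SppsKO and 0.042, -0.019 and -0.007 in WT, so the libraries overlapped. The SD of such medians between libraries of 1 group was 0.0485, and with array weights the median fold change was 0.037. SppsKO and WT libraries did not overlap for 19 members, 17 of them higher and 2 lower (12.2% and 11.8% of all tested genes). Without SppsKO 4 the median was 0.052 and 3 members were called. Leaving out SppsKO 2 or WT 2 left 2 called members in each case.

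In PhoKO discs and brains, 3 members rose and 5 fell relative to WT. mRpS31, mRpL23 and mRpS18A were higher by 0.45 to 0.26 on the log2 scale, and mRpS16, mRpL34, mRpL4, mRpS26 and mRpL24 were lower by 0.34 to 0.22. The 8 called members are 11.1% of the members, beside 9.66% of all tested genes (4.59% called higher and 5.08% called lower). The median fold change was -0.018, beside -0.0019 for all tested genes, with 29 members above 0 and 43 below. Of the 3709 tested genes in the same range of levels 1820 were above 0 and 1889 below. Libraries did not overlap for 16 members, 5 higher and 11 lower (13.7% and 14.5% of all tested genes). The same numbers, 5 and 11, reached an unadjusted p under 0.05 (11.1% and 12.5% of all tested genes). With array weights 4 members were called higher and 13 lower (10.6% and 11.7% of all tested genes), and the median was -0.067. The count of called members was 4 without PhoKO 2 or WT 1, and 5 without SppsKO 2, SppsKO 3, PhoKO 3 or WT 2. Without SppsKO 4 it was 11.

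The direct comparison of PhoKO with SppsKO gave the most calls, and all were in 1 direction. 9 members were lower in PhoKO than in SppsKO, namely mRpS16, mRpL48, mRpL34, mRpL55, mRpL27, mRpS6, mRpL51, mRpL21 and mRpL50, by 0.45 to 0.13 on the log2 scale. They are 12.5% of the members, beside 14.4% of all tested genes called, 7.12% called lower and 7.24% called higher. No member was called higher. At an unadjusted p under 0.05, 3 members were higher and 27 lower (14.9% and 15.8% of all tested genes). With array weights 3 were called higher and 25 lower (13.9% and 14.4% of all tested genes). The median fold change was -0.096, beside -0.0053 for all tested genes and -0.026 for tested genes in the same range of levels. Below 0 were 61 of 72 members, beside 2198 of the 3709 tested genes in that range. Of those genes 7.87% were called lower and 18.6% were lower at an unadjusted p under 0.05. For 19.4% of them the PhoKO libraries lay below the SppsKO libraries without overlap. PhoKO and SppsKO libraries did not overlap for 27 members, 2 higher and 25 lower in PhoKO (14.7% and 16.7% of all tested genes). Without SppsKO 4 the median was -0.072 and 6 members were called, 5 of them lower and 1 higher, and without SppsKO 2 or PhoKO 2 there were 5 and 4. The 3 comparisons share libraries, so their values for a member are not independent and are given side by side below.

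**Figure D3:**
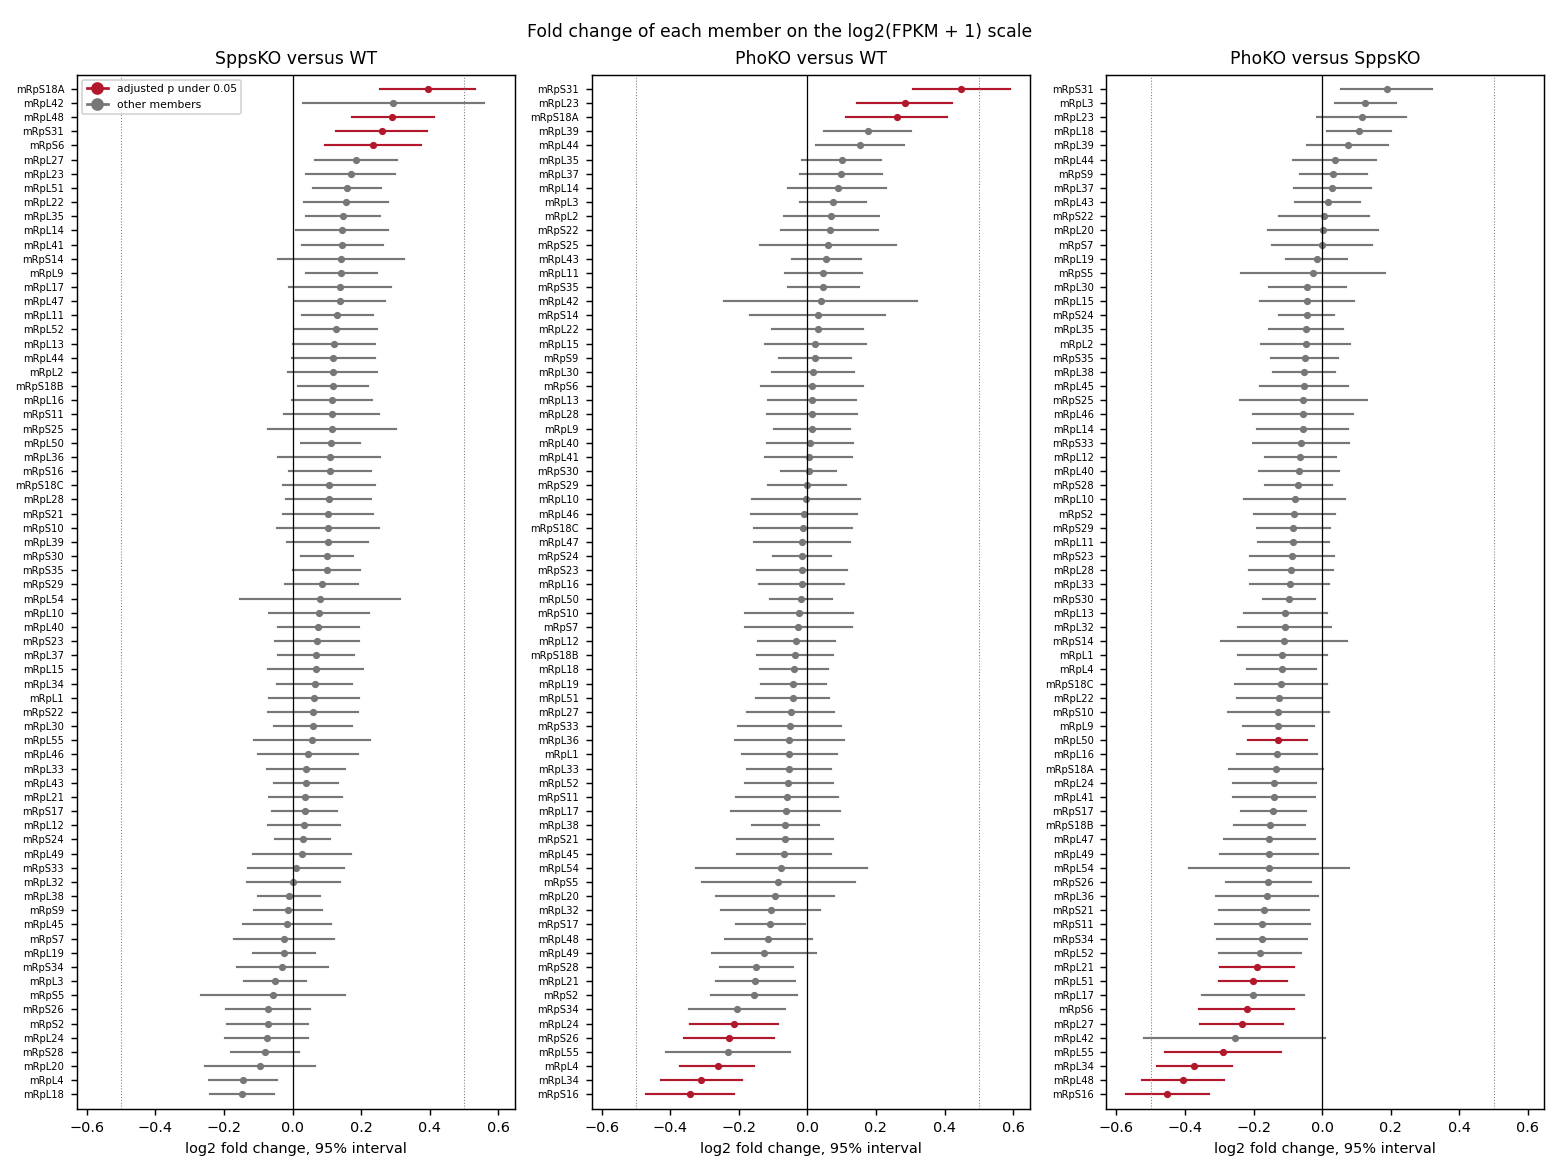
Fold change of each member on the log2(FPKM + 1) scale with its 95% interval, sorted within each panel, for SppsKO versus WT, PhoKO versus WT and PhoKO versus SppsKO. Called members are red (4, 8 and 9), dotted lines mark changes of 0.5, and the members spread around 0.082, -0.018 and -0.096.

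The data also bound how large an undetected change could be. The 95% interval of the fold change, unadjusted for the number of genes, lay wholly within 0.5 of 0 on the log2 scale for 70 members when SppsKO was set against WT, 71 for PhoKO against WT and 69 for PhoKO against SppsKO. Among all tested genes the shares were 79.4%, 78.4% and 77.6%, and among tested genes in the same range of levels 92.7%, 91.9% and 91.6%. The exceptions were mRpL42 and mRpS18A in SppsKO versus WT, mRpS31 in PhoKO versus WT, and mRpL42, mRpL48 and mRpS16 in PhoKO versus SppsKO. The median standard error of a member was 0.054, 0.058 and 0.054 in the same order of comparisons.

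Among the 15 members called in at least 1 comparison, mRpS18A and mRpS31 were called in both mutants against the shared WT libraries. The other 57 members were called in none.

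mRpS31 encodes the counterpart of human mS31, a mitochondria-specific protein of the small subunit. It had 32.2, 29.8 and 28.1 FPKM in PhoKO, 25.2, 25.6, 25.4 and 28.6 FPKM in SppsKO, and 22.7, 21.0 and 21.4 FPKM in WT. Every mutant library was above every WT library, and PhoKO and SppsKO overlapped by 1 library each. The fold change was 0.45 in PhoKO versus WT (SE 0.063, adjusted p = 0.00202) and 0.26 in SppsKO versus WT (SE 0.059, adjusted p = 0.0256). PhoKO versus SppsKO gave 0.19 (SE 0.059, adjusted p = 0.0614). The PhoKO call against WT was kept in all 21 alternatives. The SppsKO call was lost in 5, with 0.27 and an adjusted p of 0.0551 without SppsKO 2, 0.24 and 0.0773 without WT 2, and 0.25 and 0.0782 without WT 3. In PhoKO versus SppsKO, mRpS31 became called at 0.23 without SppsKO 4 (adjusted p = 0.0244) and at 0.23 without PhoKO 3 (adjusted p = 0.0448).

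mRpS18A is 1 of 3 fly genes related to the bacterial small-subunit protein S18, and its human counterpart, mL66, sits in the large subunit despite its symbol. It stood at 72.0, 70.7 and 68.6 FPKM in PhoKO, 75.8, 79.4, 74.4 and 80.0 FPKM in SppsKO, and 58.5, 53.1 and 65.0 FPKM in WT. Both mutants were above WT without overlap, and WT was the most scattered group. The fold change was 0.39 in SppsKO versus WT (SE 0.061, adjusted p = 0.00379), a call kept in all 21 alternatives, and 0.26 in PhoKO versus WT (SE 0.066, adjusted p = 0.0372). The PhoKO call was lost in 11 alternatives, among them leaving out any single library except SppsKO 4 and WT 3. Over the alternatives its fold change ran from 0.19 to 0.33 and its adjusted p up to 0.116. PhoKO versus SppsKO gave -0.13 (SE 0.061, adjusted p = 0.172).

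The other 2 genes of the S18 family were not called in any comparison. mRpS18B, whose human counterpart mS40 is a small-subunit protein, averaged 35.4 ± 1.23 FPKM in PhoKO (SD, n = 3), 39.5 ± 1.72 in SppsKO (SD, n = 4) and 36.3 ± 1.55 in WT (SD, n = 3). mRpS18C, the counterpart of human bS18m and so the bacterial-type copy, averaged 31.9 ± 1.21 FPKM in PhoKO (SD, n = 3), 34.8 ± 3.02 in SppsKO (SD, n = 4) and 32.2 ± 0.36 in WT (SD, n = 3). In SppsKO versus WT their fold changes were 0.12 (SE 0.046, adjusted p = 0.155) and 0.11 (SE 0.060, adjusted p = 0.311), and in PhoKO versus WT -0.036 (SE 0.049) and -0.012 (SE 0.064). The difference between the family members was not tested. mRpS6, whose bacterial counterpart pairs with S18 on the platform of the small subunit, had 31.0, 27.2 and 30.4 FPKM in PhoKO, 33.7, 32.4, 33.9 and 38.4 FPKM in SppsKO, and 29.2, 29.4 and 28.9 FPKM in WT. All SppsKO libraries were above all others. The fold change was 0.23 in SppsKO versus WT (SE 0.062, adjusted p = 0.0484), -0.22 in PhoKO versus SppsKO (SE 0.062, adjusted p = 0.0426) and 0.014 in PhoKO versus WT (SE 0.067, adjusted p = 0.932). Both calls lie close to the threshold. The first was lost in 15 of 21 alternatives (0.18 and an adjusted p of 0.0601 without SppsKO 4, and up to 0.123 without WT 3), and the second in 13, with an adjusted p up to 0.151.

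mRpL23 is the counterpart of a bacterial protein that receives targeting factors at the exit of the tunnel through which the growing chain leaves the large subunit. It had 63.0, 66.3 and 62.9 FPKM in PhoKO, 59.0, 58.1, 55.3 and 64.1 FPKM in SppsKO, and 52.2, 49.1 and 56.1 FPKM in WT. PhoKO was above WT without overlap, and SppsKO overlapped both. PhoKO versus WT gave a fold change of 0.28 (SE 0.062, adjusted p = 0.0193), beside 0.17 in SppsKO versus WT (SE 0.058, adjusted p = 0.108) and 0.12 in PhoKO versus SppsKO (SE 0.058, adjusted p = 0.208). The call was lost without PhoKO 2 (0.26, adjusted p = 0.0721), without WT 1 (0.28, adjusted p = 0.0620) and without WT 2 (0.24, adjusted p = 0.0615).

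mRpL4, whose bacterial counterpart lines the tunnel, went the other way, with 32.5, 32.1 and 33.2 FPKM in PhoKO, 33.1, 35.8, 35.9 and 37.3 FPKM in SppsKO, and 40.6, 39.9 and 37.6 FPKM in WT. WT was above both mutants, though above SppsKO by a gap of under 1 FPKM. mRpL4 fell by 0.26 in PhoKO versus WT (SE 0.048, adjusted p = 0.00849), kept in all 21 alternatives, and SppsKO versus WT gave -0.15 (SE 0.045, adjusted p = 0.0805). mRpL24, which in bacteria starts large-subunit assembly and ends up at the tunnel exit, had 39.7, 37.8 and 40.5 FPKM in PhoKO, 42.1, 42.8, 40.9 and 48.2 FPKM in SppsKO, and 45.8, 45.2 and 46.4 FPKM in WT. Only SppsKO 4 of the mutant libraries was above the WT range. Its fold change was -0.22 in PhoKO versus WT (SE 0.058, adjusted p = 0.0452), lost in 13 alternatives with an adjusted p up to 0.156, among them leaving out any single library except SppsKO 4. The values of mRpL4 and mRpL24 in PhoKO versus SppsKO were -0.12 (SE 0.045, adjusted p = 0.11) and -0.14 (SE 0.054, adjusted p = 0.112).

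mRpL34, a small basic protein of the bacterial-type core, was the second most abundant member. It had 75.6, 75.3 and 76.7 FPKM in PhoKO, 96.3, 97.3, 94.9 and 106 FPKM in SppsKO, and 99.8, 89.1 and 94.1 FPKM in WT. All PhoKO libraries were below all others, and SppsKO and WT overlapped. mRpL34 fell by 0.31 in PhoKO versus WT (SE 0.052, adjusted p = 0.00544) and differed by -0.37 in PhoKO versus SppsKO (SE 0.049, adjusted p = 0.00116), both kept in all 21 alternatives, and 0.064 in SppsKO versus WT (SE 0.049, adjusted p = 0.475).

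mRpS16, whose bacterial counterpart is an assembly protein of the small-subunit body, showed the same pattern with the largest fall of any member. It had 54.1, 57.0 and 63.3 FPKM in PhoKO, 81.3, 76.7, 77.6 and 83.0 FPKM in SppsKO, and 72.0, 74.7 and 74.8 FPKM in WT. The 3 groups did not overlap. mRpS16 fell by 0.34 in PhoKO versus WT (SE 0.057, adjusted p = 0.00509) and differed by -0.45 in PhoKO versus SppsKO (SE 0.054, adjusted p = 0.000639), both kept in all 21 alternatives. SppsKO versus WT gave 0.11 (SE 0.054, adjusted p = 0.253). mRpS26, a mitochondria-specific small-subunit protein, had 40.7, 36.7 and 36.2 FPKM in PhoKO, 40.1, 42.8, 41.3 and 45.1 FPKM in SppsKO, and 46.2, 45.0 and 42.3 FPKM in WT. PhoKO lay below WT, and SppsKO overlapped both. mRpS26 fell by 0.23 in PhoKO versus WT (SE 0.059, adjusted p = 0.0391), a call lost in 10 alternatives with an adjusted p up to 0.128, among them leaving out SppsKO 2, SppsKO 3, PhoKO 2, PhoKO 3, WT 1 or WT 2. It was -0.072 in SppsKO versus WT (SE 0.055, adjusted p = 0.475) and -0.16 in PhoKO versus SppsKO (SE 0.055, adjusted p = 0.0878).

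mRpL48 is the counterpart of mL48, a mitochondria-specific protein of the central protuberance in the human large subunit. It had 34.1, 36.5 and 38.9 FPKM in PhoKO, 48.1, 48.6, 46.3 and 51.4 FPKM in SppsKO, and 41.2, 39.8 and 37.6 FPKM in WT. SppsKO stood above both other groups, and PhoKO and WT overlapped. The fold change was 0.29 in SppsKO versus WT (SE 0.053, adjusted p = 0.00909) and -0.41 in PhoKO versus SppsKO (SE 0.053, adjusted p = 0.00118), and PhoKO versus WT gave -0.11 (SE 0.057, adjusted p = 0.27). No single library decided either call. mRpL40, another central protuberance protein in human structures, averaged 27.8 ± 1.40 FPKM in PhoKO (SD, n = 3), 29.2 ± 1.76 in SppsKO (SD, n = 4) and 27.7 ± 0.708 in WT (SD, n = 3).

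The remaining members called in PhoKO versus SppsKO are large-subunit genes. For mRpL27, mRpL51 and mRpL50 the SppsKO libraries were higher, and PhoKO and WT levels were close. For mRpL21 and mRpL55 SppsKO overlapped WT, and PhoKO lay below both. mRpL27, whose bacterial counterpart reaches the peptidyl transferase centre, had 75.7, 69.0 and 66.8 FPKM in PhoKO, 80.0, 83.1, 82.7 and 86.4 FPKM in SppsKO, and 76.9, 68.7 and 73.2 FPKM in WT. SppsKO was above both other groups, which overlapped. mRpL27 had a fold change of -0.24 in PhoKO versus SppsKO (SE 0.054, adjusted p = 0.0191) and 0.19 in SppsKO versus WT (SE 0.054, adjusted p = 0.066). The call was lost without SppsKO 2, PhoKO 2 or PhoKO 3, with fold changes of -0.24, -0.22 and -0.20 and an adjusted p of at most 0.0695. mRpL51, a mitochondria-specific member, had 47.3, 45.0 and 47.0 FPKM in PhoKO, 51.8, 53.4, 52.4 and 56.7 FPKM in SppsKO, and 49.4, 49.0 and 45.4 FPKM in WT. Here too SppsKO was above both other groups. Its fold change was -0.20 in PhoKO versus SppsKO (SE 0.044, adjusted p = 0.0163), with -0.18 and an adjusted p of 0.0675 without PhoKO 2, and 0.16 in SppsKO versus WT (SE 0.044, adjusted p = 0.0598).

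mRpL21, a bacterial-type protein of the large subunit that binds rRNA, had 32.2, 31.8 and 32.2 FPKM in PhoKO, 35.4, 38.3, 34.6 and 38.7 FPKM in SppsKO, and 33.9, 37.1 and 36.3 FPKM in WT. PhoKO was below both other groups with a spread of under 1 FPKM. The fold change was -0.19 in PhoKO versus SppsKO (SE 0.048, adjusted p = 0.0283) and -0.15 in PhoKO versus WT (SE 0.051, adjusted p = 0.1). mRpL55 had 40.6, 41.1 and 33.1 FPKM in PhoKO, 44.9, 47.4, 44.4 and 50.5 FPKM in SppsKO, and 46.3, 44.5 and 43.9 FPKM in WT. PhoKO 3 was the lowest library, and no PhoKO library reached the other groups. Its fold change was -0.29 in PhoKO versus SppsKO (SE 0.075, adjusted p = 0.0308) and -0.23 in PhoKO versus WT (SE 0.080, adjusted p = 0.108). mRpL50 had 36.9, 35.0 and 36.8 FPKM in PhoKO, 38.9, 41.3, 38.1 and 40.7 FPKM in SppsKO, and 37.1, 36.8 and 36.3 FPKM in WT, with the smallest called fold change, -0.13 in PhoKO versus SppsKO (SE 0.038, adjusted p = 0.0495). The 3 calls were lost in 7, 6 and 17 of 21 alternatives, with an adjusted p of at most 0.0914, 0.0765 and 0.175. The mRpL21 call was lost without SppsKO 2, SppsKO 4 or any PhoKO library, the mRpL55 call without SppsKO 1, SppsKO 2, SppsKO 4 or PhoKO 3, and the mRpL50 call without any single library except SppsKO 3.

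**Figure D4:**
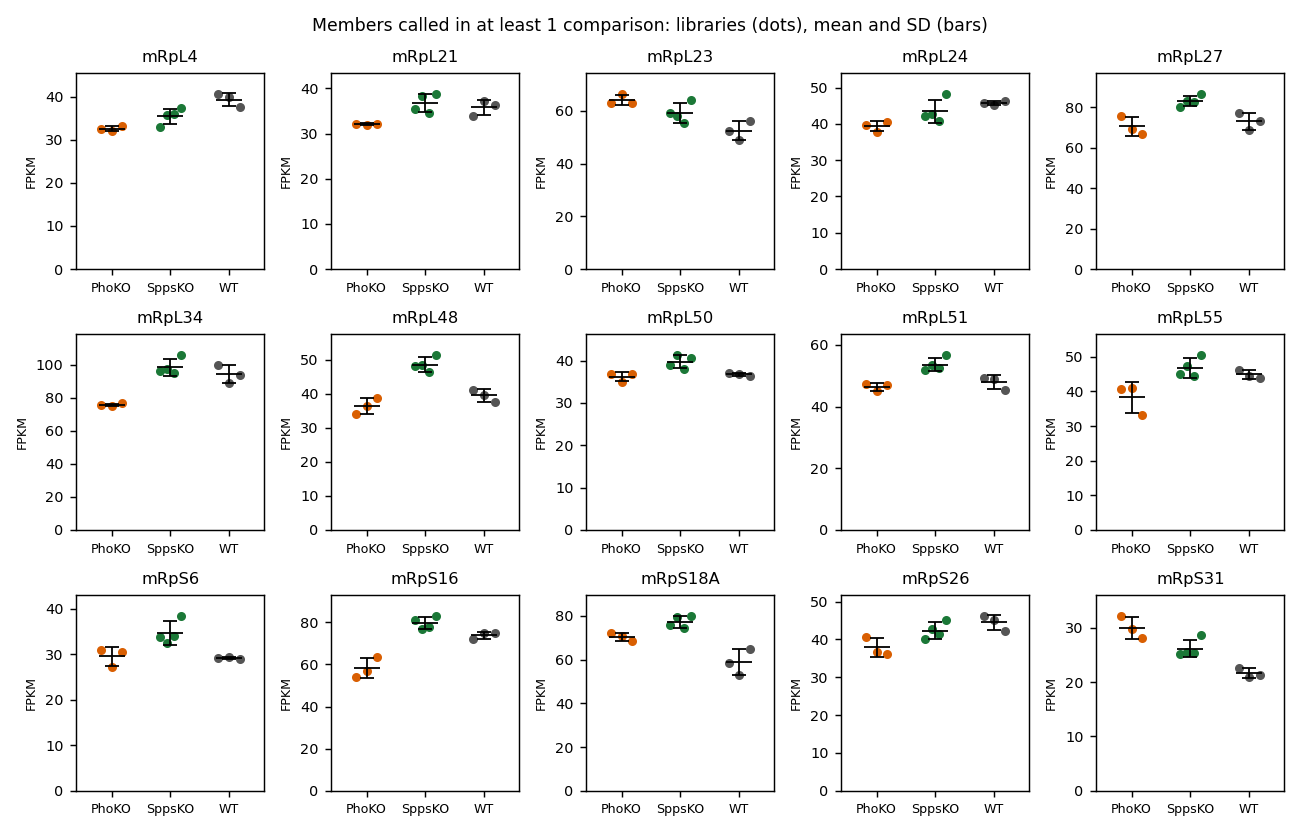
FPKM in each library (dots) with the mean and SD (bars) for PhoKO (n = 3), SppsKO (n = 4) and WT (n = 3), 1 panel for each of the 15 called members, with axes that start at 0. mRpL34 is low in the 3 PhoKO libraries (75.3 to 76.7 FPKM), mRpL48 is high in the 4 SppsKO libraries (46.3 to 51.4 FPKM), and mRpS31 is lowest in WT (21.0 to 22.7 FPKM).

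Other members had fold changes as large without passing the test. mRpL42 averaged 62.6 ± 9.50 FPKM in PhoKO (SD, n = 3), 74.5 ± 4.77 in SppsKO (SD, n = 4) and 60.9 ± 9.40 in WT (SD, n = 3). Its fold change was 0.29 in SppsKO versus WT (SE 0.117, adjusted p = 0.167) and -0.26 in PhoKO versus SppsKO (SE 0.117, adjusted p = 0.175), within the scatter of its libraries. mRpL18, a bacterial-type protein that binds ribosomal RNA at the central protuberance in bacteria, averaged 29.9 ± 0.452 FPKM in PhoKO (SD, n = 3), 27.7 ± 0.475 in SppsKO (SD, n = 4) and 30.8 ± 1.84 in WT (SD, n = 3). It had the lowest fold change in SppsKO versus WT, -0.15 (SE 0.042, adjusted p = 0.0621), and SppsKO lay below both other groups. The next lowest there after mRpL4 were mRpL20 at -0.095 (adjusted p = 0.467) and mRpS28 at -0.080 (adjusted p = 0.301). In PhoKO versus WT the largest fold changes above 0 that missed the threshold were those of mRpL39, 0.18 (adjusted p = 0.0849), and mRpL44, 0.15 (adjusted p = 0.136). mRpL39 averaged 49.2 ± 0.721 FPKM in PhoKO and 43.5 ± 1.34 in WT (SD, n = 3 each), and was called without SppsKO 4 (adjusted p = 0.0157). In PhoKO versus SppsKO the largest values above 0 after mRpS31 were 0.13 for mRpL3 (adjusted p = 0.0628), 0.12 for mRpL23, 0.11 for mRpL18 (adjusted p = 0.112) and 0.074 for mRpL39 (adjusted p = 0.381).

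The 2 mitochondrial ribosomal protein genes that the table lists under older fly names, tko (mRpS12) and bonsai (mRpS15), are not among the 72. tko, named for a bang-sensitive mutant, averaged 61.5 ± 1.45 FPKM in PhoKO (SD, n = 3), 68.2 ± 6.77 in SppsKO (SD, n = 4) and 60.9 ± 2.43 in WT (SD, n = 3), and was called in no comparison. bonsai averaged 38.0 ± 0.653 FPKM in PhoKO (SD, n = 3), 43.2 ± 1.02 in SppsKO (SD, n = 4) and 41.2 ± 0.463 in WT (SD, n = 3). It was lower in PhoKO than in SppsKO by a fold change of -0.18 (SE 0.031, adjusted p = 0.0055).

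By class, the 4 members called in SppsKO versus WT were 1 of 43 bacterial-type and 3 of 29 mitochondria-specific members. In PhoKO versus WT they were 5 and 3, and in PhoKO versus SppsKO 5 and 4. Of all tested genes 8.18%, 9.66% and 14.4% were called in the same order of comparisons. Classes follow the human names. By this rule mRpS18A (mL66) and mRpS18B (mS40) count as mitochondria-specific, although both are related to bacterial S18. The median fold changes of bacterial-type and mitochondria-specific members were 0.077 and 0.085 for SppsKO against WT, -0.026 and -0.0098 for PhoKO against WT, and -0.107 and -0.088 for PhoKO against SppsKO. Members with large-subunit symbols had medians of 0.079, -0.018 and -0.101 in the same order, and those with small-subunit symbols 0.092, -0.021 and -0.093. These medians lay within 0.02 of each other between classes in each comparison, and no difference between classes was tested.

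Genes next to the called members on the chromosome were also examined, since the counting's strand setting is not given and overlapping genes could share fragments. In the gene order of the Release 6 plus ISO1 MT assembly, used only for which tested genes lie side by side, 39 members overlapped a neighbour. Both neighbours of mRpL23 were higher in PhoKO than in WT. CG8993, which overlaps it, had a fold change of 0.41 (adjusted p = 0.00086) and CG9004 one of 0.61 (adjusted p = 0.000513). The neighbour of mRpS31 that does not overlap it, CG5830, went the opposite way to mRpS31, at -1.03 in PhoKO versus WT (adjusted p = 5.7e-07) and -0.50 in SppsKO versus WT (adjusted p = 5.65e-05), while the overlapping neighbour mib1 had values of 0.030 and 0.007. pch2, beside mRpS18A without overlap, was higher in SppsKO than in WT at 0.30 (adjusted p = 0.00586). mRpS16 lies next to cg, the gene for the Polycomb recruiter Cg, whose fold change was -0.016 in PhoKO versus WT (adjusted p = 0.839). Of the neighbours of called members, 2 of 8 were called when SppsKO was set against WT, 3 of 16 for PhoKO against WT and 0 of 18 for PhoKO against SppsKO, beside 6.62%, 5.47% and 9.52% of the neighbours of other members. The values of overlapping pairs are uncertain, since they could share fragments, mRpL23 with CG8993 among them. Other called members that overlap a neighbour, besides mRpS31, are mRpL48 (frtz), mRpL34 (CG8414), mRpS16 (CG8331), mRpL4 (CG4278), mRpL50 (Neos) and mRpL51 (PIG-U). None of these neighbours was called. frtz had 0.17 in SppsKO versus WT (adjusted p = 0.0535). In PhoKO versus WT CG8414 had -0.12, CG8331 -0.10 and CG4278 0.095. Neos had -0.13 and PIG-U -0.039 in PhoKO versus SppsKO.

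Genes that work with the mitochondrial ribosome were counted in the same fit. Of all tested genes, 3.92% were called higher and 4.26% lower in SppsKO versus WT. These shares were 4.59% and 5.08% in PhoKO versus WT, and 7.24% and 7.12% in PhoKO versus SppsKO. At an unadjusted p under 0.05 they were 12.4% and 11.8%, 11.1% and 12.5%, and 14.9% and 15.8% in the same order. The list counts below are to be read beside these shares, and no list was tested against them. In SppsKO versus WT, 3 of 68 tested oxidative phosphorylation genes rose and none fell, with a median of 0.086 beside 0.082 for the members. They were RFeSP, the Rieske iron-sulphur subunit (0.46, adjusted p = 0.000629), ox, a small subunit of the same complex (0.36, adjusted p = 0.004), and CG10320 (0.30, adjusted p = 0.0162). Of those genes 15 were higher and none lower at an unadjusted p under 0.05. The 14 import genes had a median of 0.067 with none called, although 1 was higher and 2 were lower at an unadjusted p under 0.05. Of 84 tested cytosolic ribosomal protein genes none was called, 5 were higher and 1 lower at an unadjusted p under 0.05, and the median was 0.025. In PhoKO versus WT the medians were 0.010 for oxidative phosphorylation, -0.026 for import and 0.043 for cytosolic ribosomal proteins, beside -0.018 for the members. Of the import genes 2 fell and none rose, the receptor Tom70 by 0.38 (adjusted p = 0.000504) and the intermembrane chaperone Tim8 by 0.28 (adjusted p = 0.00206). Of the oxidative phosphorylation genes 1 rose and 2 fell. Cyt-c-p, the main cytochrome c gene, was higher by 0.36 (adjusted p = 0.0109), while CG18624 and Pdsw, a subunit of complex I, had fold changes of -0.20 (adjusted p = 0.0358) and -0.31 (adjusted p = 0.0379). In PhoKO versus SppsKO, 4 of 68 oxidative phosphorylation genes and 3 of 14 import genes were lower and none higher, with medians of -0.069 and -0.110, beside -0.096 for the members. At an unadjusted p under 0.05, 2 oxidative phosphorylation genes and 0 import genes were higher there, and 13 and 6 were lower. Cytosolic ribosomal protein genes had a median of 0.021 there, with 6 called higher and 1, RpS5b, called lower.

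Translation factors and aminoacyl-tRNA synthetases of mitochondria changed in both directions. Of 26, 3 rose in SppsKO relative to WT, which were CG5660 (0.31, adjusted p = 0.0163), CG6412 (0.27, adjusted p = 0.0366) and Aats-pro (0.29, adjusted p = 0.0388). In PhoKO relative to WT 1 rose, gatA (0.23, adjusted p = 0.0269), and 4 fell, among them CG5414 (-0.37, adjusted p = 0.00403), Aats-ser (-0.32, adjusted p = 0.0104) and CG12413 (-0.25, adjusted p = 0.0317). The list medians were -0.017 for SppsKO against WT, -0.081 for PhoKO against WT and -0.057 for PhoKO against SppsKO. Among 12 genes of mitochondrial DNA maintenance and transcription, DNApol-gamma35, an accessory subunit of the mitochondrial DNA polymerase, fell by 0.24 in PhoKO versus WT (adjusted p = 0.0333), and mtTFB1, an rRNA methyltransferase, had a fold change of -0.14 in PhoKO versus SppsKO (adjusted p = 0.0285). The 8 regulators of growth and mitochondrial genes, among them dm (the fly Myc), ERR and srl, were not called in any comparison (3, 2 and 0 at an unadjusted p under 0.05), with medians of 0.039, 0.052 and 0.011. Genes encoded in mitochondrial DNA were not analysed here.

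**Figure D5:**
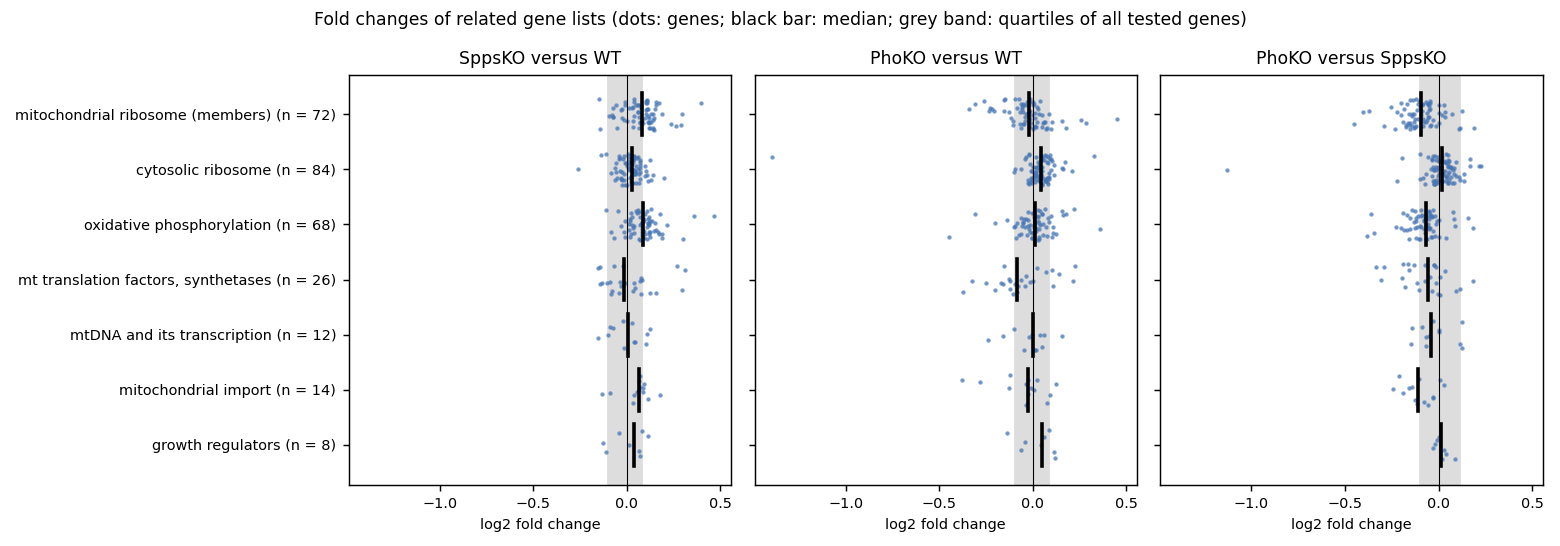
Log2 fold changes of single genes (dots) with list medians (black bars) in SppsKO versus WT, PhoKO versus WT and PhoKO versus SppsKO, with the quartiles of all tested genes as a grey band. The medians of the 72 members (0.082, -0.018 and -0.096) lie near those of oxidative phosphorylation genes (0.086, 0.010 and -0.069) and import genes (0.067, -0.026 and -0.110), and RpS5b is the dot at -1.39 in PhoKO versus WT.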

How the data were processed

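Deposited FPKM values of 10 RNA-Seq libraries (3 PhoKO, 4 SppsKO and 3 WT) were analysed. Per the labels' protocols, polyadenylated RNA was made into libraries with a kit that keeps strand, and 12 libraries were pooled for sequencing, of which 10 were analysed here. The 42 ChIP-Seq samples of the series were not analysed here. The FPKM values had been normalized across libraries before deposit, per the file headers in the layout of Cuffnorm. Per the submitters' processing notes the tools of the series include TopHat2 2.1.1, HTSeq, Cufflinks, DESeq2 and Cuffnorm, and the builds are dm3 and BDGP5. Which annotation was counted, and whether counting used strand, is not given in the sources used here. FPKM is not a count, so depth is unknown, and relative depth came from ratios among genes with low values.

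Values were taken as log2(FPKM + 1), and fold changes are on this scale, where low genes appear to change less than they do. Genes with 1 FPKM or more in at least 3 libraries (9748, all 72 members among them) entered 1 linear model over the 10 libraries without covariates, fitted by limma 3.58.1 under R 4.3.3, with variances moderated by eBayes (its trend and robust options on). The fit was tested on simulated data. Benjamini-Hochberg adjustment ran over all tested genes within each comparison, and calls were made at an adjusted p under 0.05. Single values outside the fit used exact permutation tests in SciPy 1.17.1. Gene symbols were matched to RefSeq (16298 of 16502).

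The members and gene lists were chosen with earlier results of these data known. Members named are those called in any comparison, the 5 largest fold changes on each side in each comparison, the 8 highest and 4 lowest levels, the 3 genes of the S18 family, and members under an older name; from other lists, genes follow the order of adjusted p. The assignment of members to human counterparts was made after values were seen. Replicate numbers were not taken to pair the samples. Correlations of deviations between libraries of the same number ran from -0.377 to 0.11, and of different numbers from -0.314 to 0.392. Deviations from the means of 3 or 4 libraries cannot settle whether a pairing exists. Alternatives were pseudocounts of 0.1 and 5, dropping the filter or keeping genes that average 5 FPKM or more, scaling by median of ratios, quantile normalization, fits of the 2 compared groups, array weights, eBayes without trend and robust, a replicate block, each library left out, and, added after seeing the data, WT 3 and PhoKO 1 left out.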

Additional observations from a re-analysis of the deposited data

Results flagged for a closer look

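In the SppsKO group of 4, each of 33 values (the members named by rule and their sum) was screened for a library far from the other 3, and 3 were marked, where chance marks about 5% of such groups. mRpL10 had 25.5 FPKM in SppsKO 4 against 21.8 to 22.1 FPKM in the other SppsKO libraries, and mRpS31 had 28.6 FPKM in SppsKO 4 against 25.2 to 25.6 FPKM. Without SppsKO 4, mRpS31 remained higher in SppsKO than in WT (0.22 on the log2 scale, adjusted p = 0.041). mRpL12 had 81.1 FPKM in SppsKO 3 against 88.4 to 89.2 FPKM in the other SppsKO libraries, within the range of the PhoKO and WT libraries.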

How the results depend on the processing

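Of the 21 calls of a member in a comparison, 8 were kept in all 21 alternatives: mRpS18A in SppsKO versus WT, mRpL34, mRpL4, mRpS16 and mRpS31 in PhoKO versus WT, and mRpL34, mRpL48 and mRpS16 in PhoKO versus SppsKO. The other 13 were lost in at least 1, of which 12 were lost without some single library, and mRpL48 in SppsKO versus WT only under the replicate block. With array weights 15, 17 and 28 members were called in SppsKO versus WT, PhoKO versus WT and PhoKO versus SppsKO, and 2263, 2178 and 2764 of all tested genes (797, 942 and 1400 without weights), while the PhoKO versus WT median of the members was -0.067. Without the filter, 5 members were called in PhoKO versus WT. In a fit of the 2 compared groups alone, 486 of all tested genes were called in PhoKO versus WT, and without WT 3 and PhoKO 1, 627. The replicate block left 1 member called in SppsKO versus WT and 4 in PhoKO versus SppsKO, and 449 and 753 of all tested genes, and drops SppsKO 4 by construction, since no other group has a replicate 4. The numbers were not taken to pair the samples, and whether they do is not settled by these data.

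Leaving out each library in turn gave 2 to 5 called members in SppsKO versus WT, 4 to 11 in PhoKO versus WT and 4 to 11 in PhoKO versus SppsKO, and 506 to 838, 554 to 1112 and 829 to 1671 of all tested genes. The member medians ran from 0.052 to 0.106, from -0.051 to -0.002 and from -0.122 to -0.072. The sign of a fold change near 0 turned in 7 cases, none of them a call. These were mRpL34 in SppsKO versus WT with array weights (-0.013), and in PhoKO versus WT mRpS6 with array weights (-0.039), without WT 3 and PhoKO 1 (-0.026), without PhoKO 1 (-0.020) and without PhoKO 3 (-0.0079), mRpL50 without PhoKO 2 (0.006) and mRpS18C without PhoKO 3 (0.019). Leaving out 1 library, the lowest and highest values were -0.020 and 0.070 for mRpS6, -0.032 and 0.006 for mRpL50 and -0.030 and 0.019 for mRpS18C. The cause was not tested. Depth is unknown, and relative depth was lowest in WT 3 and PhoKO 1.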
